A study of Mus musculus with 2 samples.

Results

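Mir128, Mir138 and Mir218 are microRNAs that the mouse genome encodes at 2 loci each. The 6 genes described here, Mir128-1, Mir128-2, Mir138-1, Mir138-2, Mir218-1 and Mir218-2, were taken by name from the 1973 genes of the deposited count tables, and all 6 were among them. Small RNA under 30 nt from the total RNA of whole B6NCrl mouse hearts at postnatal day 0 was sequenced. Replicate 1 is the heart of pup 1 and replicate 2 the heart of pup 3, with 1 library per heart and no second condition. The labels name no treatment or engineered allele, and the sex of the pups was not collected. The tables hold 6373797 counts on the strand of the genes in replicate 1 and 7630427 in replicate 2, and levels are given as CPM, sense counts scaled to a library total of 1000000. Intervals cover counting error only.

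A microRNA gene is transcribed into a hairpin precursor, from which a short duplex is cut. One strand of the duplex, the mature arm, guides the silencing complex to messenger RNAs, mainly through its seed at bases 2 to 8, while the other arm is often degraded. When 2 loci encode the same mature arm, the product is the same whichever locus was transcribed. miR-128 and miR-138 are best known as microRNAs of neurons, miR-138 as a regulator of dendritic spines, and miR-218 is abundant in motor neurons. All 3 have also been studied in the heart, where miR-138 has been linked to chamber patterning in zebrafish, miR-218 to heart tube formation through Slit and Robo signalling, and miR-128 to cardiomyocyte proliferation.

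The 3 mature arms that the loci share are shown first, since they are the products that target messages, with the seed in capitals (RefSeq, GRCm38.p6).
mmu-miR-128-3p: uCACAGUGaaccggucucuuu
mmu-miR-138-5p: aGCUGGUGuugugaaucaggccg
mmu-miR-218-5p: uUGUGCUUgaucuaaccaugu
The 3 seeds differ, so the set holds 3 targeting families and not 1. In the RefSeq table of 1679 mature names no other arm had the seed of miR-128-3p or of miR-138-5p, and 1 other, mmu-miR-7002-3p, had that of miR-218-5p. Of all 1398 seeds in that table, 86.6% belonged to 1 mature name.

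The opposite arm differs between the loci of each pair. These are the annotated arms by which a read can name its locus, again with bases 2 to 8 in capitals.
mmu-miR-128-1-5p: cGGGGCCGuagcacugucuga
mmu-miR-128-2-5p: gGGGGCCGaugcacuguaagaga
mmu-miR-138-1-3p: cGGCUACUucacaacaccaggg
mmu-miR-138-2-3p: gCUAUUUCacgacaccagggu
mmu-miR-218-1-3p: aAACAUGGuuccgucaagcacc
mmu-miR-218-2-3p: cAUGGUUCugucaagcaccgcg
The Mir128 opposite arms had the same seed, GGGGCCG, and matched at 16 of 23 aligned positions. In the Mir138 pair the opposite arms matched at 18 of 23 aligned positions and had different seeds. Those of the Mir218 pair matched at 18 of 25, also with different seeds, and mmu-miR-218-1-3p had that of mmu-miR-496b. Each of these 6 arms occurred whole in 1 of the 1005 RefSeq hairpins, while each shared arm occurred in 2.

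The hairpins show where the pairs are alike, with the shared mature arm in capitals.
Mir128-1: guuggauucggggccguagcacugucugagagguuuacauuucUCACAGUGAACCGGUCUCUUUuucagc
Mir128-2: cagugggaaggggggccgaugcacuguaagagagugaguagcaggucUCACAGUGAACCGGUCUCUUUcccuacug
Mir138-1: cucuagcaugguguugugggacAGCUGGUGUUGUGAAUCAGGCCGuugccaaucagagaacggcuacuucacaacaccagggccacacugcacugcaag
Mir138-2: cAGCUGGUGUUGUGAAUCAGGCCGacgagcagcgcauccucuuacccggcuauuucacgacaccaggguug
Mir218-1: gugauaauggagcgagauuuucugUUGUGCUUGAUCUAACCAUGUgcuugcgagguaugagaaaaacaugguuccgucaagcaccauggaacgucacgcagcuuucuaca
Mir218-2: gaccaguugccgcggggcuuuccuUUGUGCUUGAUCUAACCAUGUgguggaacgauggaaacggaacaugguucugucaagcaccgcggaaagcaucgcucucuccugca
Around the shared arm the hairpins of a pair were identical over 23 nt for Mir128, 24 nt for Mir138 and 22 nt for Mir218. The run thus ended within 2 nt of the arm on each side. For Mir138 its 5′ end is the start of the Mir138-2 hairpin, 1 nt before the arm, so sequence upstream was not compared. A read that lies inside the run of a pair has the same sequence at both loci. Outside the run no window of 20 nt was common to the loci of a pair. Of the 20-nt windows of each hairpin, 4 of 51 in Mir128-1 and 4 of 57 in Mir128-2 occurred in another RefSeq hairpin, as did 5 of 80 in Mir138-1, 5 of 52 in Mir138-2 and 3 of 91 in each Mir218 hairpin, and all of these were in the partner. Over the whole hairpin the Mir128 pair matched at 71.4% of aligned positions, the Mir218 pair at 70.9% and the Mir138 pair at 49.5%, where the annotated hairpins also differ in length.

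**Figure D1:**
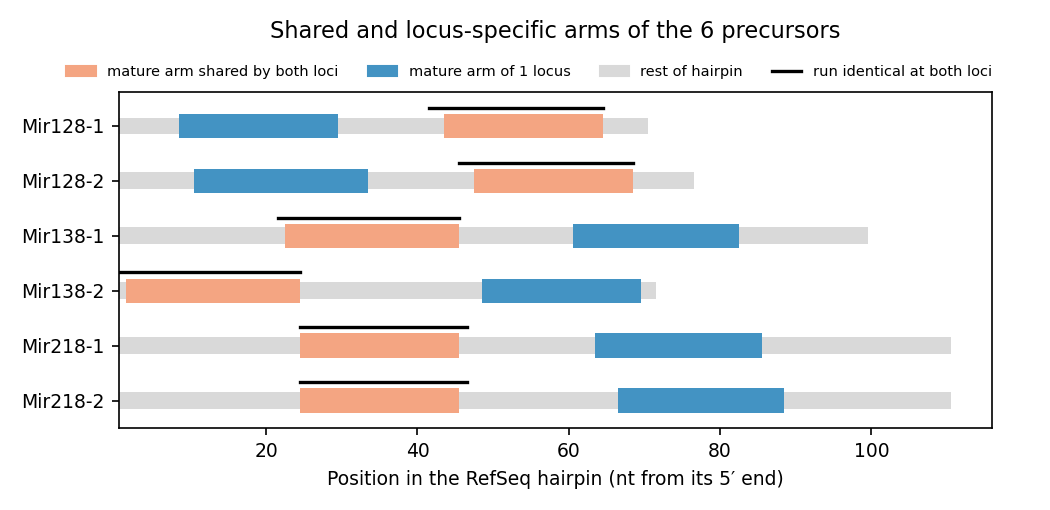
Each bar is 1 RefSeq hairpin, drawn from its 5′ end, with the position in nt on the x axis. Orange marks the mature arm that both loci share, blue the arm that differs, and the black line the run of 22 to 24 nt identical at both loci. The shared arm lies on the 3′ side in Mir128 and on the 5′ side in Mir138 and Mir218.

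The deposited tables list reads that matched several places apart from the genes. There were 4974412 such reads in replicate 1 and 5980508 in replicate 2, which were 35.9% and 34.6% of all reads. They carry no gene name, so the part that belongs to miR-128-3p, miR-138-5p or miR-218-5p was not tested. The counts of the 6 genes are therefore counts of reads placed at 1 locus, and they are not the level of the shared mature microRNA. Which arm or part of the hairpin the counted reads came from is not recorded in the tables.

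All 6 loci were detected in both hearts, and together they took a small part of the counts. They held 1397 counts in replicate 1, which is 0.0219% of the total with an exact Clopper-Pearson 95% interval from 0.0208% to 0.0231%. In replicate 2 they held 1937 counts, 0.0254% of the total, with an interval from 0.0243% to 0.0265%. Mir128-1 and both Mir138 loci were the higher 3, at 43.9 to 86.6 CPM by mean, and both Mir218 loci and Mir128-2 the lower 3, at 12.5 to 24.0 CPM. The ranks of their means among the 1973 genes ran from 162 for Mir128-1 to 249 for Mir128-2, and the mean over the 435 genes with 10 or more counts had a median of 27.9 CPM. On the opposite strand each of the 6 loci had 0 counts in both hearts, which allows up to 0.471 CPM in replicate 1 and 0.393 CPM in replicate 2 (3 counts). If the reads that matched several places are added to the library total, every level of the 6 becomes 0.561 times as high.

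Mir128-1 (ENSMUSG00000065520.1) lies on chromosome 1 at 128202361 to 128202430, plus strand, mm10, in an intron of R3hdm1, a gene for a protein with an R3H nucleic acid binding domain. It had 552 counts in replicate 1, at 86.6 CPM, and 660 in replicate 2, at 86.5 CPM, a mean of 86.6 ± 0.0769 CPM (SD, n = 2). The hearts had nearly the same level of this locus. Mir128-2 (ENSMUSG00000065441.1) lies on chromosome 9 at 112118636 to 112118711, minus strand, in an intron of Arpp21, which encodes a phosphoprotein of brain regulated by cAMP. It had 76 and 100 counts, at 11.9 and 13.1 CPM, a mean of 12.5 ± 0.836 CPM. It was the lowest of the 6 loci in both hearts by CPM.

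Mir138-1 (ENSMUSG00000065414.1) lies on chromosome 9 at 122682876 to 122682974, plus strand, in an exon of Gm47135, annotated as a transcribed pseudogene. It had 230 counts in replicate 1, at 36.1 CPM, and 395 in replicate 2, at 51.8 CPM, a mean of 43.9 ± 11.1 CPM. Mir138-2 (ENSMUSG00000065512.2) lies on chromosome 8 at 94324311 to 94324381, plus strand, in an exon of the long noncoding RNA C78859. It had 277 counts at 43.5 CPM and 499 at 65.4 CPM, a mean of 54.4 ± 15.5 CPM. Both loci were higher in replicate 2, and the value of Mir138-1 in that heart, 51.8 CPM, was above that of Mir138-2 in the other.

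Mir218-1 (ENSMUSG00000065603.1) lies on chromosome 5 at 48223942 to 48224051, plus strand, in an intron of Slit2. Mir218-2 (ENSMUSG00000065583.1) lies on chromosome 11 at 35616816 to 35616925, plus strand, in an intron of Slit3. Slit2 and Slit3 encode secreted guidance proteins that bind Robo receptors, and the host messages were not measured here. Mir218-1 had 93 counts at 14.6 CPM in replicate 1 and 119 at 15.6 CPM in replicate 2, a mean of 15.1 ± 0.710 CPM. Mir218-2 had 169 counts at 26.5 CPM and 164 at 21.5 CPM, a mean of 24.0 ± 3.55 CPM. The Slit3 locus was the higher in each heart.

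**Figure D2:**
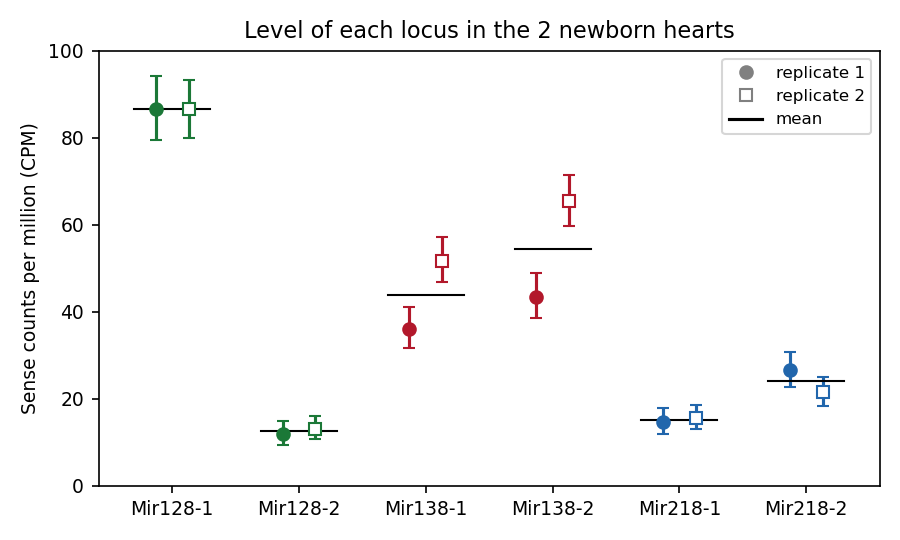
The level in CPM on the sense strand (y axis) is plotted for each of the 6 loci (x axis). Filled circles are replicate 1, open squares replicate 2, error bars exact Clopper-Pearson 95% intervals of the counts, and black lines the mean of the 2 hearts. Mir128-1 stands at 86.6 and 86.5 CPM, and the Mir138 loci are the ones that are apart between hearts, at 36.1 and 51.8 and at 43.5 and 65.4 CPM.

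By mean CPM the order was Mir128-1, Mir138-2, Mir138-1, Mir218-2, Mir218-1 and Mir128-2. Of the 5 neighbours in this order, the values of Mir138-2 and Mir138-1 overlapped between hearts and those of the other 4 pairs did not. The 95% counting intervals of Mir218-1 and Mir128-2 overlapped, at 11.8 to 17.9 and 9.39 to 14.9 CPM in replicate 1. Those of Mir218-2 and Mir218-1 overlapped in replicate 2, at 18.3 to 25.0 and 12.9 to 18.7 CPM. Scaled to annotated hairpin length, a scale not tested for reads under 30 nt, the bottom of the order changed. Mir128-1 then had 124 ± 0.110 CPM per 100 nt, Mir138-2 had 76.7 ± 21.8, Mir138-1 had 44.4 ± 11.2 and Mir218-2 had 21.8 ± 3.23. On that scale Mir128-2, at 16.5 ± 1.10 CPM per 100 nt, was above Mir218-1, at 13.7 ± 0.646.

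The loci of a pair were compared within each heart, to see at which of them more reads were placed. Most counts of the Mir128 pair were placed at the R3hdm1 locus. Mir128-1 made up 87.9% of the pair's counts in replicate 1 (85.1% to 90.3%, exact Clopper-Pearson 95% interval, as for the other shares of pairs) and 86.8% in replicate 2 (84.2% to 89.2%), which is 7.22-fold and 6.57-fold the counts of Mir128-2. The exact binomial test against 1 to 1 gave adjusted p-values of 1.26e-89 and 1.72e-101. By counts Mir138 was nearly even. Mir138-2 made up 54.6% in replicate 1 (50.2 to 59.0) and 55.8% in replicate 2 (52.5 to 59.1), or 1.20-fold and 1.26-fold the counts of Mir138-1, with exact binomial adjusted p-values of 0.0458 and 0.000736. Mir218 lay between these by counts, with the Slit3 locus ahead. Mir218-2 made up 64.5% in replicate 1 (58.4 to 70.3) and 58.0% in replicate 2 (52.0 to 63.8), or 1.81-fold and 1.38-fold the counts of Mir218-1, with exact binomial adjusted p-values of 4.40e-06 and 0.0103.

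Each of the 6 comparisons passed the threshold of 0.05. Adjustment was over 47 tests, which cover every pair of genes with a shared mature sequence in the RefSeq table and 10 or more counts in a library, and of these 89.4% passed. A passing test is thus common among such pairs and does not set these 3 apart. The tests cover counting error within a library, and a difference in capture between hairpin sequences was not tested. Per base of hairpin the Mir138 difference was wider, with log2 ratios of Mir138-1 over Mir138-2 of -0.75 in replicate 1 and -0.82 in replicate 2, against -0.27 and -0.34 by counts. The Mir128 log2 ratios of the first locus over the second were 2.85 and 2.72 by counts and 2.97 and 2.84 per base. Both Mir218 hairpins are 110 nt long, so length leaves their log2 ratios of -0.86 and -0.46 as they are. On that per-base scale Mir138 was more uneven than Mir218 in replicate 2, and Mir218 more uneven than Mir138 in replicate 1. The scale depends on where the annotated hairpins end. The shared arm starts at base 23 of the Mir138-1 hairpin and at base 2 of the Mir138-2 hairpin. Reads were under 30 nt, and whether counts grow with hairpin length was not tested.

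No change of the ratio within a pair between the hearts passed the test. The mean log2 ratio of the first locus over the second was 2.78 ± 0.10 for Mir128, -0.30 ± 0.05 for Mir138 and -0.66 ± 0.28 for Mir218 (SD, n = 2). From replicate 1 to replicate 2 the count ratio of the first locus over the second changed by a factor of 0.910 for Mir128 (conditional 95% interval 0.651 to 1.26), 0.953 for Mir138 (0.761 to 1.19) and 1.32 for Mir218 (0.919 to 1.89). Fisher's exact test gave adjusted p-values of 0.889, 0.927 and 0.420 for the 3 changes, and over all 28 pairs tested 7.14% passed. The interval for Mir218 still allows a change of up to 1.89-fold.

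Among microRNA pairs whose names differ only in the final number and that share a mature sequence, 24 had 10 or more counts in the 2 hearts together. These pairs were ordered by the size of the mean log2 ratio of counts, not scaled to length, from most even to most uneven. Mir138 was number 2, Mir218 number 5 and Mir128 number 16. Some places rest on few counts. The Mir365 pair, number 4, had 6 counts in replicate 1 and 19 in replicate 2, and the Mir196a pair, number 14, had 5 in each. The other 21 pairs ran from 1.08-fold to 80.7-fold, with a median of 4.66-fold. Beside these, Mir128 had a mean ratio of 6.89-fold toward Mir128-1, Mir138 one of 1.23-fold toward Mir138-2 and Mir218 one of 1.58-fold toward Mir218-2. The same locus led in both hearts in 22 of the 24 pairs, these 3 included.

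**Figure D3:**
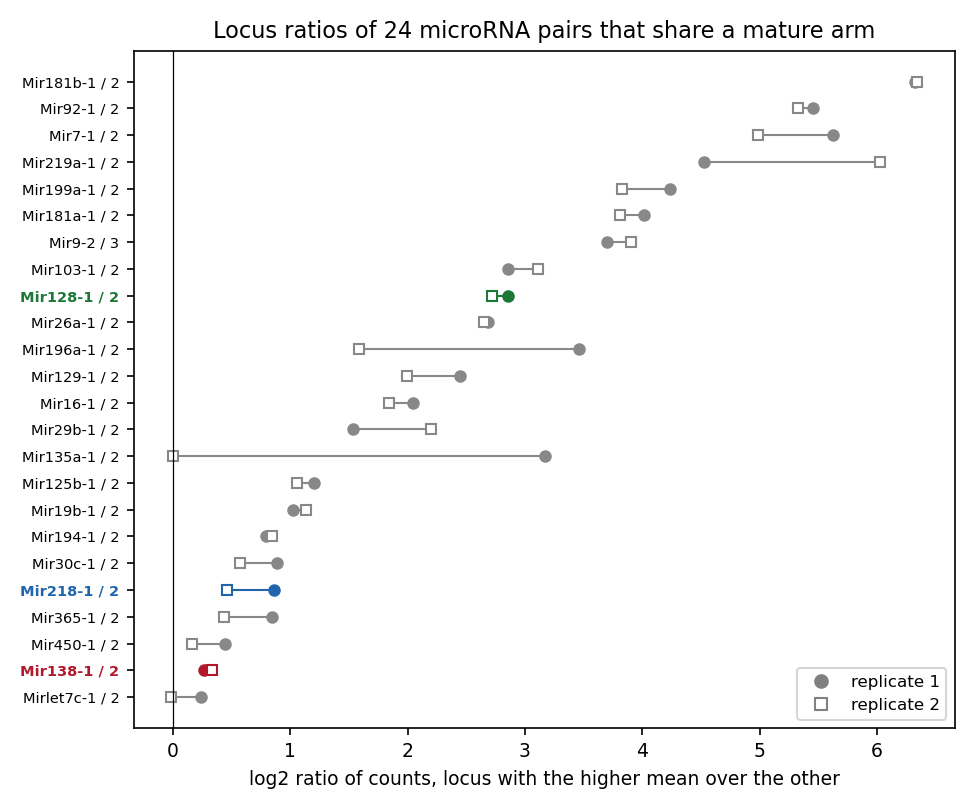
Each line is 1 of 24 pairs, and the x axis is the log2 ratio of counts of the locus with the higher mean over the other, with 0.5 counts added. Filled circles are replicate 1 and open squares replicate 2. Mir138, in red, and Mir218, in blue, are among the most even pairs at 1.23-fold and 1.58-fold, and Mir128, in green, is at 6.89-fold.

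Between the hearts, the Mir138 loci differed and the other 4 loci did not pass the test. Mir138-1 was 1.43-fold higher in replicate 2 (exact 95% interval 1.22 to 1.70, exact binomial adjusted p = 5.55e-05) and Mir138-2 was 1.50-fold higher (1.30 to 1.75, exact binomial adjusted p = 1.83e-07). Summed over both loci, Mir138 had 79.5 CPM in replicate 1 and 117 CPM in replicate 2. With that, Mir138 went from 36.3% of the counts of the 6 loci to 46.2%. Of the 435 genes tested 31.0% were called, 19.1% higher in replicate 2 and 12.0% higher in replicate 1, so 2 of 6 called is near the background. The median log2 ratio of the 6 was 0.11, and that of all genes tested 0.02.

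For the other loci the intervals set limits. The fold of replicate 2 over replicate 1 was 0.999 for Mir128-1 (0.891 to 1.12, exact binomial adjusted p = 1), 1.10 for Mir128-2 (0.808 to 1.50, adjusted p = 0.759) and 1.07 for Mir218-1 (0.808 to 1.42, adjusted p = 0.849). For Mir218-2 it was 0.811 (0.650 to 1.01, exact binomial adjusted p = 0.166). A change of more than 1.12-fold upward thus lies outside the interval for Mir128-1, while Mir128-2 with its 176 counts in all allows one of 1.50-fold.

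**Figure D4:**
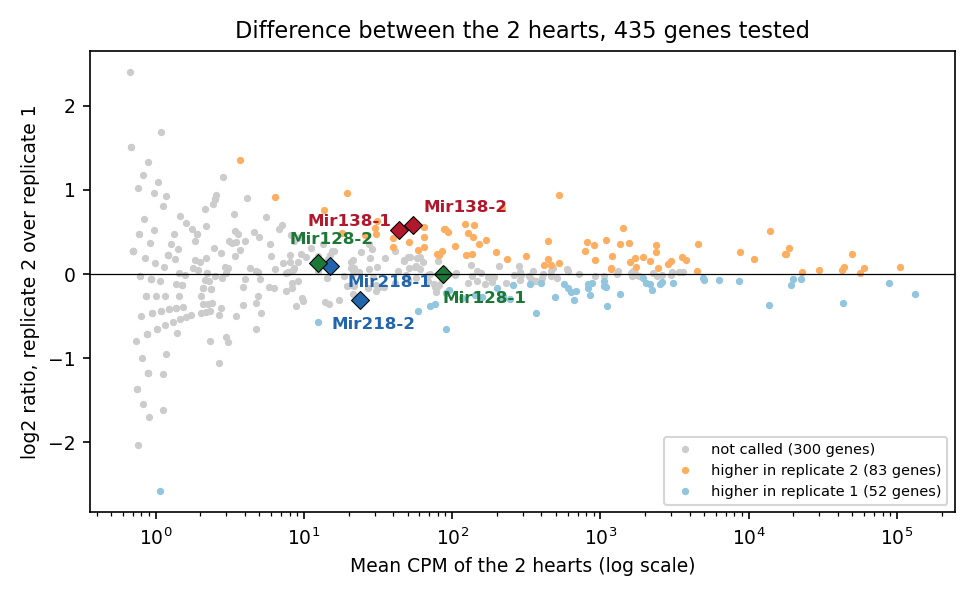
Each point is 1 of the 435 genes with 10 or more counts, with the mean CPM on a log x axis and the log2 ratio of replicate 2 over replicate 1 on the y axis. Orange points were called higher in replicate 2 and light blue points higher in replicate 1, and the diamonds are the 6 loci. The Mir138 loci lie at 0.52 and 0.59 among the orange points, and the other 4 loci lie between -0.30 and 0.13.

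The comparison is of 2 libraries, with sampling noise as its only error. Each heart has its own library, so the animal and the library preparation cannot be told apart. With an allowance for spread between animals the Mir138 calls were lost, as the edgeR exact test with a preset coefficient of variation of 0.1 gave adjusted p-values of 0.535 for Mir138-1 and 0.390 for Mir138-2.

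Markers of the labelled tissue and other microRNAs of nerve were measured beside these loci. The 6 cardiac muscle microRNAs counted took 12.2% of counts in replicate 1 and 12.5% in replicate 2, led by Mir208b and Mir208a of the myosin heavy chain genes at 104936 ± 4545 and 13703 ± 2426 CPM, and followed by Mir499 of Myh7b at 4977 ± 183 CPM. The others, Mir1a-1 at 8.89 ± 1.63, Mir133a-1 at 8.24 ± 1.88 and Mir133a-2 at 2.08 ± 0.163 CPM, were below all 6 loci. Like those of the 6 loci, these counts leave out reads that matched several places. They are not the levels of mature miR-1 or miR-133a, and Mir1a-2, also on the list, was not counted. By the exact binomial test Mir208b was called higher in replicate 2, at 1.06-fold, Mir208a and Mir499 were called higher in replicate 1, at 0.777-fold and 0.949-fold of replicate 2 over replicate 1, and the other 3 were not called.

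Of 17 nerve microRNAs other than the 6 loci, 16 were counted (Mir9-1 was not) and 9 had 10 or more counts in both hearts. Their summed level was 426 CPM in replicate 1 and 418 CPM in replicate 2, led by Mir132 at 256 ± 16.0 CPM and by Mir137 at 41.2 ± 5.47 CPM. Which cells gave these counts was not tested, so the sum is not a measure of nerve in the heart. Of the defining neuronal genes, all 3 Mir124a loci and Mir9-2 had 0 counts in each heart. Mir9-3 was counted in both, with 6 counts at 0.941 CPM in replicate 1 and 7 at 0.917 CPM in replicate 2. As with the 6, Mir9-2 shares its mature arms with Mir9-3, and the Mir124a loci are known to encode 1 mature microRNA.

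Of the 11 nerve genes tested 0 were called higher in replicate 2 by the exact binomial test, 1 was called higher in replicate 1, Mir132 at a log2 ratio of -0.13 (adjusted p = 0.0297), and 10 were not called. Over all genes tested 19.1% were called higher in replicate 2 and 12.0% higher in replicate 1. The list's median log2 ratio was 0.15, beside 0.02 over all genes tested. Mir137, at 37.3 and 45.1 CPM, had a log2 ratio of 0.27 with an exact binomial adjusted p of 0.0837. The liver marker Mir122, at 35.8 and 44.6 CPM, and the red cell microRNA Mir451a, at 931 and 1237 CPM, were also higher in replicate 2, by 1.24-fold and 1.33-fold (exact binomial adjusted p = 0.0332 and 7.14e-66). The Mir122 call was lost with a total without the most abundant gene (adjusted p = 0.0773) and with no minimum of counts (adjusted p = 0.0544). Mir144, also of red cells, was lower there, at 112 and 71.2 CPM (exact binomial adjusted p = 1.43e-14). Mir223 of myeloid cells, at 409 and 396 CPM, was not called (exact binomial adjusted p = 0.436). Like the Mir138 calls, those of Mir208a, Mir208b, Mir499, Mir132, Mir122, Mir451a and Mir144 were lost at the preset coefficient of variation of 0.1. The part of blood or other tissue in the Mir138 difference was not tested. In whole hearts, more cells of a type and more RNA per cell cannot be told apart.

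For each locus the 2 genes with the nearest values were found by the distance in log2(CPM + 1) over the 2 libraries, which is a likeness over 2 values only. For Mir128-1 they were Mir540 and Mir378d, at distances of 0.051 and 0.062, and for Mir128-2 Mir19a and Mir452, at 0.060 and 0.065. Those of Mir138-2 were Mir877, at 45.0 and 68.5 CPM (distance 0.083), and Mir378c at 44.1 and 57.7 CPM (0.180). Those of Mir138-1 were Mir199a-2 and Mir137, both at 0.20 when rounded. Mir218-1 was nearest to Mir153 and Mir1955 at 0.087 and 0.091, and Mir218-2 to Mir670 and Mir7689 at 0.218 and 0.226. The partner locus was not among the nearest 2 genes for any of the 6.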

How the data were processed

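The authors deposited whole-number read counts per gene for 2 newborn heart libraries, without normalization. The build was mm10 and the annotation GENCODE M4, per the file headers in the accompanying text. No aligner, counter or version is given in the sources used here. Of 3 count columns, the first is the sum of the others, and the second, with 92.9% and 92.8% of gene counts, was taken as the sense strand. This reading comes from the values. Totals leave out the rows without a gene. Per library, unmapped reads were 12.6% and 15.5% and reads in no gene 1.93% and 2.28%.

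Names and positions came from GENCODE M21 on the same build, matched without version numbers for 1894 of 1973 identifiers. For 3 loci, Mir128-1, Mir128-2 and Mir138-2, the version differs, so the counted interval may differ from the hairpin shown. Sequences came from RefSeq, where all 6 hairpins matched GENCODE M21 coordinates.

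Hearts were compared by 2-sided exact binomial tests given the totals, with Benjamini-Hochberg adjustment over genes with 10 or more counts. Locus pairs were compared by 2-sided exact binomial and Fisher's exact tests over the pairs with an identical mature sequence in the RefSeq table (64, of which both genes were counted in 53), with 0.5 counts added in log2 ratios. The scripts were tested on simulated data. The genes named were the 6 loci, the nearest 2 genes to each, the 2 highest and the called genes of the nerve and cardiac lists, the tissue markers and the host genes. The members and lists were chosen with earlier results of these data known. Tools were Python 3.11.15, SciPy 1.17.1, pandas 2.3.3, Biopython 1.88, R 4.3.3, edgeR 4.0.16 and DESeq2 1.42.0 (size factors only).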

Additional observations from a re-analysis of the deposited data

How the results depend on the processing

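The difference of each of the 6 loci between hearts kept its direction and its side of the threshold under counts of both strands, TMM factors, DESeq2 size factors, a total without the most abundant gene, no minimum of counts, a minimum of 100 counts and 5 added counts. Over these 7 settings the log2 ratio ran from 0.48 to 0.52 for Mir138-1 (adjusted p 3.51e-05 to 0.000218) and from 0.55 to 0.59 for Mir138-2 (1.16e-07 to 1.26e-06). Where edgeR's exact test was run with the coefficient of variation preset to 0.1 or 0.2 the log2 ratios were 0.52 and 0.59, with adjusted p of 0.535 and 1 for Mir138-1 and 0.390 and 1 for Mir138-2. Over all genes that test called 1 gene at 0.1 (29 at an unadjusted p under 0.05) and 0 genes at 0.2 (4 unadjusted), against 135 by the exact binomial test. The locus ratios of the 3 pairs and their changes kept direction and call under each alternative run for them. Leaving out 1 heart at a time gave mean log2 ratios of 2.72 to 2.85 for Mir128, -0.34 to -0.27 for Mir138 and -0.86 to -0.46 for Mir218. It gave levels of 86.5 to 86.6 CPM for Mir128-1, 11.9 to 13.1 for Mir128-2, 36.1 to 51.8 for Mir138-1, 43.5 to 65.4 for Mir138-2, 14.6 to 15.6 for Mir218-1 and 21.5 to 26.5 for Mir218-2. With the reads that matched several places in the denominator the levels were 48.6, 7.02, 24.6, 30.5, 8.47 and 13.5 CPM, in the order Mir128-1, Mir128-2, Mir138-1, Mir138-2, Mir218-1, Mir218-2. By counts of both strands every level of the 6 became 0.928 times as high. Mir128-1, Mir128-2 and Mir218-1 were then at 80.3, 11.6 and 14.0 CPM, and Mir138-1, Mir138-2 and Mir218-2 at 40.8, 50.5 and 22.3 CPM. Without the most abundant gene the levels became 1.151 to 1.155 times as high. Mir128-1, Mir128-2, Mir218-1 and Mir218-2 were then at 99.9, 14.4, 17.4 and 27.7 CPM, and Mir138-1 and Mir138-2 at 50.6 and 62.6 CPM. No paired analysis was possible because there is 1 group of 2 hearts.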
